A study of Mus musculus with 8 samples.

Results

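The BCL-2 family genes described here are 10 genes that set the threshold for cell death at the mitochondrion, namely the survival genes Bcl2, Bcl2l1 and Mcl1, the effectors Bax and Bak1, and the BH3-only genes Bid, Bad, Bcl2l11, Bbc3 and Pmaip1. They were chosen by gene symbol, as probe sets of the array annotated to that 1 symbol. Of the 10 genes, 9 had such a probe set (1 each) among the 21789 probe sets tested, and Bax is not analysed here. RNA was measured on 8 Affymetrix Gene Chip arrays (Whole Transcript 1.0ST) from cells sorted by staining for CD16 and CD32 out of tail tumors that had arisen spontaneously in transgenic mice. The groups were CD16/32HI and CD16/32LO cells of IL-15-/- TAX+ LUC+ mice and of IL-15+/+ TAX+ LUC+ mice, with 2 arrays in each of the 4 groups. All mice carried both transgenes, with the HTLV-1 oncogene Tax under the human granzyme B promoter and firefly luciferase under the HTLV-1 long terminal repeat. The IL-15-/- allele was a germline knockout on C57BL/6 that was crossed into a TAX-LUC line of mixed C57BL/6 and FVB background, so tumor and host cells alike lacked the intact gene. Replicate 1 of each genotype was a mouse of 14 months and replicate 2 a mouse of 12 months. The labels call CD16/32HI cells malignant and CD16/32LO cells tumor infiltrating. The authors describe the CD16/32HI population as highly enriched in malignant large granular lymphocytes. The first question was whether the balance of survival and death transcripts differed between IL-15-/- and IL-15+/+ tumors, and the second how it differed between the sorted populations.

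Survival members of the BCL-2 family hold the effectors BAX and BAK in check, and the effectors, once free, open pores in the outer mitochondrial membrane and release cytochrome c. BH3-only proteins relay stress to this switch by binding the survival members or the effectors. Neutrophils are known to depend on MCL1, a protein with a short half-life, while mature lymphocytes lean on BCL2 and developing ones on BCL-XL as well. IL-15 is known to support the survival of NK cells and memory CD8+ T cells, in part through these genes.

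The promoters of Bcl2l1 and Mcl1 are shown because these were the survival genes that separated the sorted populations in 3 of 4 mice. Each run is the 250 bases before a transcription start in RefSeq (build GRCm38.p6), 5′ to 3′ on the strand of the gene, with capitals marking a motif match. The Bcl2l1 run lies at chr2:152830718-152830967 on the minus strand and holds an NF-kB match. Of the 3 start windows of the gene it is the only 1 with a match to any motif searched. The Mcl1 run lies at chr3:95658471-95658720 on the plus strand and holds a GC box match read on the opposite strand.
Bcl2l1: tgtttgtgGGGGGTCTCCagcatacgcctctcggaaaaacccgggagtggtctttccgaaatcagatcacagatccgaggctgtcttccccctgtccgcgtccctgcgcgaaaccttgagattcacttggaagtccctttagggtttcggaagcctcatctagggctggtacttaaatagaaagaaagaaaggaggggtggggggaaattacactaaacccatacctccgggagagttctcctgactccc
Mcl1: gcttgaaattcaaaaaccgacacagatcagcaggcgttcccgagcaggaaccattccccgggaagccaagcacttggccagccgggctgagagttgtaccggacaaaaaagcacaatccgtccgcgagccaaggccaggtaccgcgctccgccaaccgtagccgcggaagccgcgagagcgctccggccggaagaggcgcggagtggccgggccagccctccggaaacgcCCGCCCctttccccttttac
Motifs were searched on both strands, and the matches in these 2 runs did not overlap another motif. A RefSeq start window was at hand for 9 members (15 windows in all), which include Bax but not Pmaip1, so Pmaip1 was not searched. The GC box GGGCGG stood in 10 of the 15 windows (7 genes), against 32.7% of all 32851 promoters of the same length. NF-kB matches stood in Bcl2l1 and Bbc3 (7.25% of all promoters), a C/EBP match (TTNNGCAA, 9.56%) in Bid and a p53 half-site (7.13%) in Bax. The STAT motif TTCNNNGAA (7.02%), the AP-1 motif TGANTCA (6.75%) and the CRE motif TGACGTCA (1.55%) were found in 0 of the 15 windows. A match describes the letters only.

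The values are log2 signals after RMA, with 1 unit a doubling, and they compare arrays for 1 gene, not genes with each other. Array medians lay between 5.62 and 5.93, and over the tested probe sets those of IL-15-/- arrays averaged 0.11 (log2) higher in both populations. This offset lay in replicate 2, where both IL-15+/+ arrays had a median of 5.76, under that of every other array. Within replicate 1 the IL-15-/- medians were slightly lower, at 5.99 against 6.04 in CD16/32HI and 6.035 against 6.040 in CD16/32LO cells. In 3 mice the summed signal of 10 neutrophil markers was 13.1 to 13.7 (log2) in CD16/32HI and 15.1 to 15.3 in CD16/32LO cells, and that of 9 measured macrophage markers was 14.0 to 14.6 in CD16/32HI and 12.4 to 12.6 in CD16/32LO cells. In the 14-month IL-15-/- mouse both lists ran against the labels, with neutrophil markers at 15.4 on the array labelled CD16/32HI and 13.6 on that labelled CD16/32LO, and macrophage markers at 12.4 on the array labelled CD16/32HI and 14.3 on that labelled CD16/32LO. Members' values are therefore given with and without this mouse, and its arrays are named by their labels throughout. Large granular lymphocytes could carry the 10 listed NK and cytotoxic markers. In CD16/32HI cells Klrd1 read 6.26 to 7.87 and Prf1 6.05 to 6.25, above every array median. The receptor Ncr1 (4.10 to 4.85), Gzma (4.01 to 5.46) and Klrb1c (4.27 to 4.70) lay below every array median. Eomes read 4.79 to 5.62, Gzmb 4.50 to 6.18, Klrk1 4.63 to 6.06, Nkg7 5.02 to 6.61 and Xcl1 5.73 to 6.82. The list summed to 8.64 to 8.79 (log2) in IL-15-/- and 9.42 to 9.58 in IL-15+/+ CD16/32HI cells, and to 8.74 to 8.93 in IL-15-/- and 11.05 to 11.09 in IL-15+/+ CD16/32LO cells. Its part in the genotype values was not tested. Xist read 10.1 to 10.8 in IL-15-/- and 3.92 to 4.64 in IL-15+/+ mice, and the Y-linked Eif2s3y 2.82 to 3.36 in IL-15-/- and 9.10 to 9.47 in IL-15+/+ mice, so sex and genotype cannot be told apart. The arrays fell into 3 sets that share some exactly equal values (11 to 106 a pair). All replicate 1 (14-month) arrays formed 1 set. The IL-15+/+ arrays of replicate 2 formed another, as did the IL-15-/- arrays of replicate 2. The labels do not say what the sets are. In replicate 2 the genotypes lay in different sets, so set and genotype cannot be told apart there. The same holds for every genotype value without the 14-month IL-15-/- mouse, because the remaining IL-15-/- arrays lay in a set with no IL-15+/+ array. In sorted cells, a change in the share of a cell type and a change in RNA per cell cannot be told apart.

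**Figure D1:**
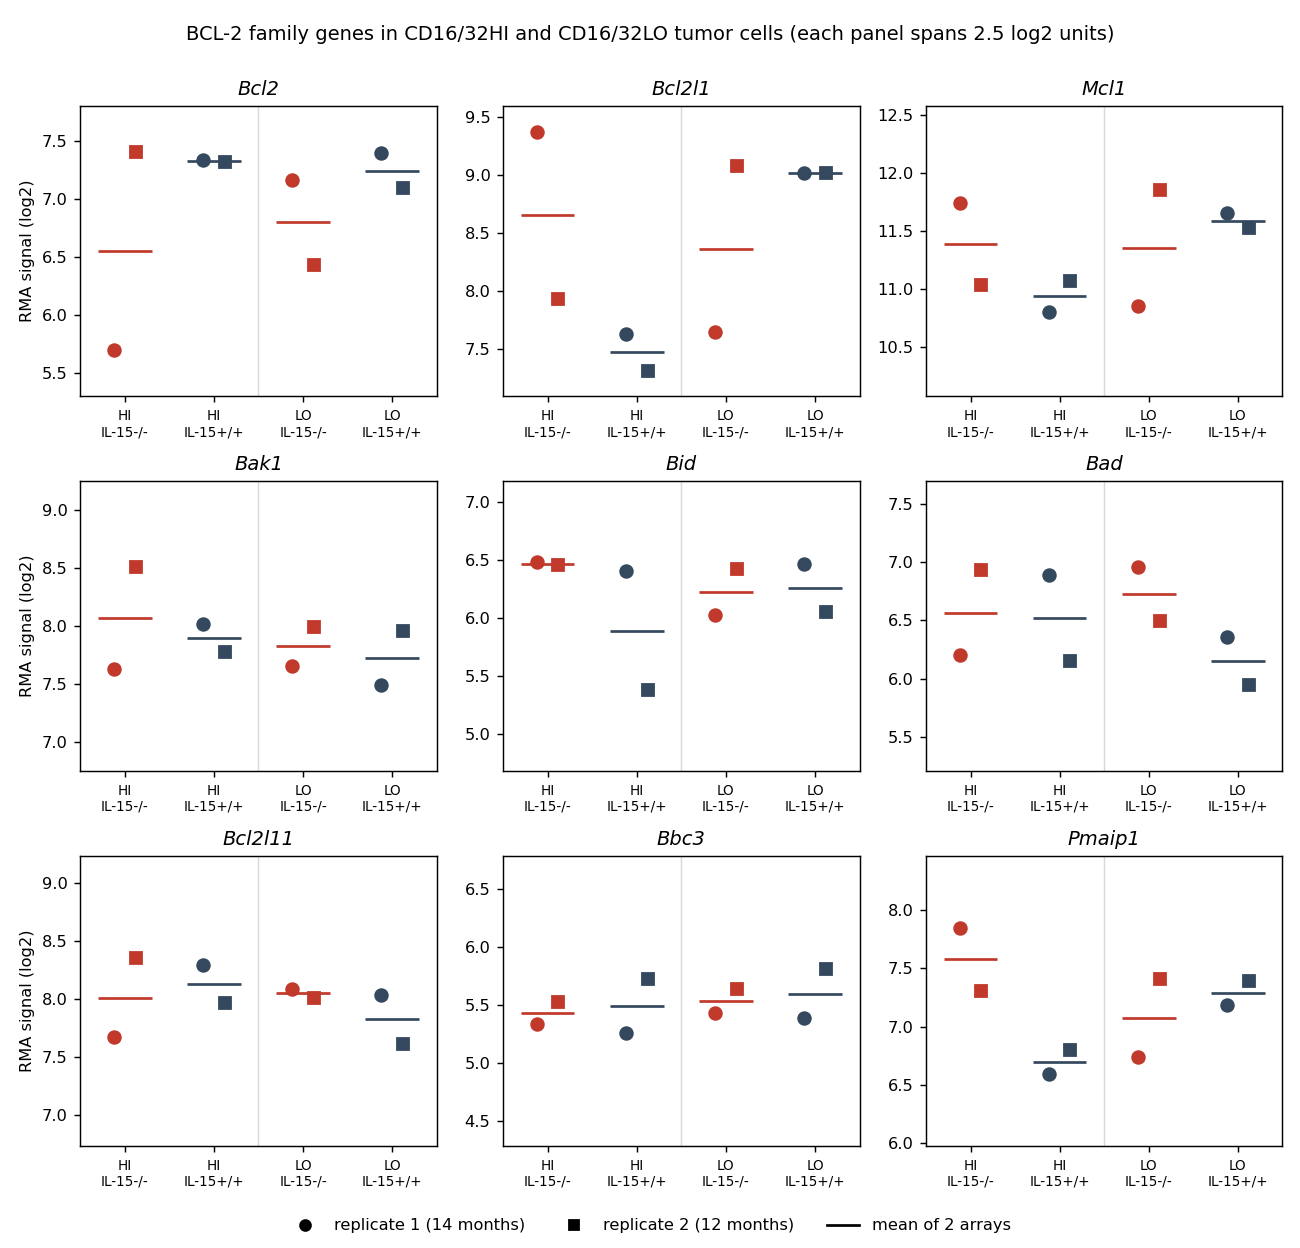
RMA signal (log2) of the 9 measured genes on each array, with 1 panel a gene, circles for replicate 1 (14 months), squares for replicate 2 (12 months) and lines for the mean of 2 arrays. Bcl2l1, Mcl1 and Pmaip1 were high on the array labelled CD16/32HI of the 14-month IL-15-/- mouse and low on its CD16/32LO array, which is the reverse of the other 3 mice.

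Among the survival genes, Bcl2l1, which encodes BCL-XL, had the widest range of the 9 members, 2.06 (log2) over the 8 arrays. In CD16/32HI cells its signal was 9.37 and 7.93 in IL-15-/- replicates 1 and 2, against 7.63 and 7.31 in IL-15+/+ replicates 1 and 2. The CD16/32LO values were 7.65 and 9.07 in IL-15-/- mice, against 9.01 and 9.02 in IL-15+/+ mice. Both IL-15-/- CD16/32HI values thus lay above both IL-15+/+ values, by 1.74 within replicate 1 and by 0.62 within replicate 2. In replicate 2 the median of all tested probe sets was also higher on the IL-15-/- CD16/32HI array (6.02 against 5.76). The fitted difference of IL-15-/- minus IL-15+/+ was 1.18 ± 0.53 (SE) in CD16/32HI and -0.66 ± 0.53 in CD16/32LO cells, and neither passed limma's test (adjusted p = 0.854 and 0.9999). Without the 14-month IL-15-/- mouse these were 0.46 and 0.06, so the CD16/32LO sign turned.

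Mcl1 encodes the short-lived survival protein of neutrophils. Its signal in CD16/32HI cells was 11.74 and 11.03 in IL-15-/- mice, against 10.80 and 11.07 in IL-15+/+ mice. Among CD16/32LO arrays it was 10.85 and 11.85 in IL-15-/- mice, against 11.66 and 11.52 in IL-15+/+ mice. The genotypes overlapped in both populations, and the 4 highest and 4 lowest arrays were those of Bcl2l1. The genotype difference was 0.45 ± 0.37 (SE) in CD16/32HI and -0.24 ± 0.37 in CD16/32LO cells (limma adjusted p = 0.869 and 0.9999). With that mouse left out the values were 0.09 and 0.26.

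Bcl2, the founding survival gene and the one on which resting lymphocytes depend, read 5.70 and 7.40 in IL-15-/- CD16/32HI cells, against 7.34 and 7.32 in IL-15+/+ CD16/32HI cells. The CD16/32LO signal was 7.17 and 6.43 in IL-15-/- mice, against 7.39 and 7.09 in IL-15+/+ mice. The array labelled CD16/32HI of the 14-month IL-15-/- mouse was the lowest of all for Bcl2. The remaining CD16/32HI arrays lay within 0.08 of each other between genotypes, and the CD16/32LO genotypes overlapped. The differences of -0.78 ± 0.49 (SE) in CD16/32HI and -0.45 ± 0.49 in CD16/32LO cells did not pass (limma adjusted p = 0.854 and 0.9999), and without that mouse they were 0.07 and -0.81. T cell markers moved with genotype in CD16/32LO cells as well, with summed signals of 9.0 to 9.6 (log2) in IL-15-/- and 10.97 to 11.19 in IL-15+/+ mice. Their part in the Bcl2 values was not tested.

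Bak1, the only effector among the measured members, was at 7.63 and 8.50 in IL-15-/- CD16/32HI cells, against 8.02 and 7.77 in IL-15+/+ CD16/32HI cells. Bak1 in CD16/32LO cells read 7.65 and 7.99 in IL-15-/- mice, against 7.49 and 7.95 in IL-15+/+ mice. The genotypes overlapped in both populations. The differences were 0.17 ± 0.33 (SE) and 0.10 ± 0.33, with limma adjusted p of 0.946 and 0.9999, and the sign of both turned under quantile normalization. With the 14-month IL-15-/- mouse left out they were 0.61 and 0.27.

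The BH3-only gene with the clearest separation was Pmaip1, which encodes NOXA, an antagonist of MCL1. Its signal in CD16/32HI cells was 7.85 and 7.31 in IL-15-/- mice, against 6.59 and 6.80 in IL-15+/+ mice. Pmaip1 in CD16/32LO cells was 6.74 and 7.41 in IL-15-/- mice, against 7.19 and 7.40 in IL-15+/+ mice. The IL-15-/- CD16/32HI arrays both exceeded the IL-15+/+ ones, by 0.51 within replicate 2 and by 1.26 within replicate 1. The CD16/32LO genotypes overlapped. Within replicate 2 the median of all tested probe sets was also higher on the IL-15-/- CD16/32HI array (6.02 against 5.76). Its CD16/32HI signal averaged 7.58 ± 0.38 in IL-15-/- mice and 6.69 ± 0.15 in IL-15+/+ mice (SD, n = 2 each). The difference of 0.88 ± 0.30 (SE) had an unadjusted limma p of 0.0167, the only one of the 9 members below 0.05, and an adjusted p of 0.854. Without the 14-month IL-15-/- mouse it was 0.61 (adjusted p = 0.887). In CD16/32LO cells the difference was -0.22 ± 0.30 with that mouse and 0.11 without it.

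Bid encodes the BH3-only protein that caspase-8 cleaves to link death receptors to mitochondria. Its signal in CD16/32HI cells was 6.48 and 6.46 in IL-15-/- mice, against 6.40 and 5.38 in IL-15+/+ mice. The groups did not overlap, but IL-15+/+ replicate 1 lay only 0.08 under its age match, and the 0.58 ± 0.35 (SE) difference was 0.07 without IL-15+/+ replicate 2 and 0.56 without the 14-month IL-15-/- mouse. On the CD16/32LO arrays Bid was at 6.03 and 6.42 in IL-15-/- mice, against 6.46 and 6.05 in IL-15+/+ mice, and the difference was -0.03 ± 0.35, or 0.17 with that IL-15-/- mouse left out.

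Bad encodes a BH3-only protein held inactive by growth factor signaling through phosphorylation. It read 6.20 and 6.93 in IL-15-/- CD16/32HI cells, against 6.89 and 6.15 in IL-15+/+ CD16/32HI cells. Bad in CD16/32LO cells was 6.96 and 6.49 in IL-15-/- mice, against 6.36 and 5.94 in IL-15+/+ mice. Only Bad among the members had IL-15-/- CD16/32LO arrays that both exceeded the IL-15+/+ ones, with a difference of 0.58 ± 0.35 (SE; limma adjusted p = 0.9999), or 0.34 without the 14-month IL-15-/- mouse. In CD16/32HI cells the groups overlapped, and the difference of 0.05 ± 0.35 was -0.06 when arrays were centred on their medians and 0.41 without that mouse.

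Bcl2l11, which encodes BIM, an activator of cell death in leukocytes deprived of cytokines, was at 7.67 and 8.35 in IL-15-/- CD16/32HI cells, against 8.30 and 7.96 in IL-15+/+ CD16/32HI cells. The CD16/32LO arrays gave 8.09 and 8.01 in IL-15-/- mice, against 8.04 and 7.62 in IL-15+/+ mice. The groups overlapped in both populations, with differences of -0.12 ± 0.29 (SE) in CD16/32HI and 0.22 ± 0.29 in CD16/32LO cells. Without the 14-month IL-15-/- mouse both were positive, at 0.22 and 0.19.

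Bbc3, which encodes PUMA, a p53 target, varied least. It read 5.33 and 5.52 in IL-15-/- and 5.26 and 5.72 in IL-15+/+ CD16/32HI cells, and 5.43 and 5.64 in IL-15-/- and 5.39 and 5.81 in IL-15+/+ CD16/32LO cells. On 6 of 8 arrays it lay below the array median, where signals of expressed and unexpressed genes are hard to separate. Its genotype differences were -0.06 ± 0.26 (SE) in both populations, and 0.03 in CD16/32HI and 0.04 in CD16/32LO cells without the 14-month IL-15-/- mouse.

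Across the family, 0 of 9 members passed limma's test between genotypes in CD16/32HI cells, against 5 of all 21789 probe sets (0.0229%). In CD16/32LO cells 0 of 9 passed, against 8 (0.0367%). In each population the probe sets that passed included 4 sex-linked genes (1 higher and 3 lower). In CD16/32LO cells they also included 2 NK and cytotoxic markers and 1 T cell marker, all lower. At an unadjusted limma p under 0.05 the counts were 1 of 9 and 0 of 9, against 1070 and 417 of all probe sets. The smallest adjusted p among the members was 0.854 in CD16/32HI and 0.9999 in CD16/32LO cells. The methods' rule (unadjusted p under 0.05 and more than 3-fold) took 0 members, against 10 and 17 of all probe sets. In CD16/32HI cells 3 of 9 members (Bcl2l1, Bid and Pmaip1) had higher IL-15-/- than IL-15+/+ values with no overlap, against 24.1% of all probe sets, and 0 had lower values with no overlap, against 10.4%. In CD16/32LO cells 1 of 9 (Bad) was higher with no overlap, against 24.2%, and 0 lower, against 4.7%. These are 33.3% and 11.1% of the members, within 2 members of the backgrounds. The median difference of the members was 0.17 in CD16/32HI and -0.06 in CD16/32LO cells, beside 0.09 and 0.13 over all probe sets. Without the 14-month IL-15-/- mouse it was 0.41 and 0.17, beside 0.12 and 0.14, and again 0 members passed in either population. With 2 arrays a group the 95% intervals stayed wide, and that of Bcl2l1 in CD16/32HI cells ran between -0.03 and 2.39. The p-values measure only the spread between these arrays.

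**Figure D2:**
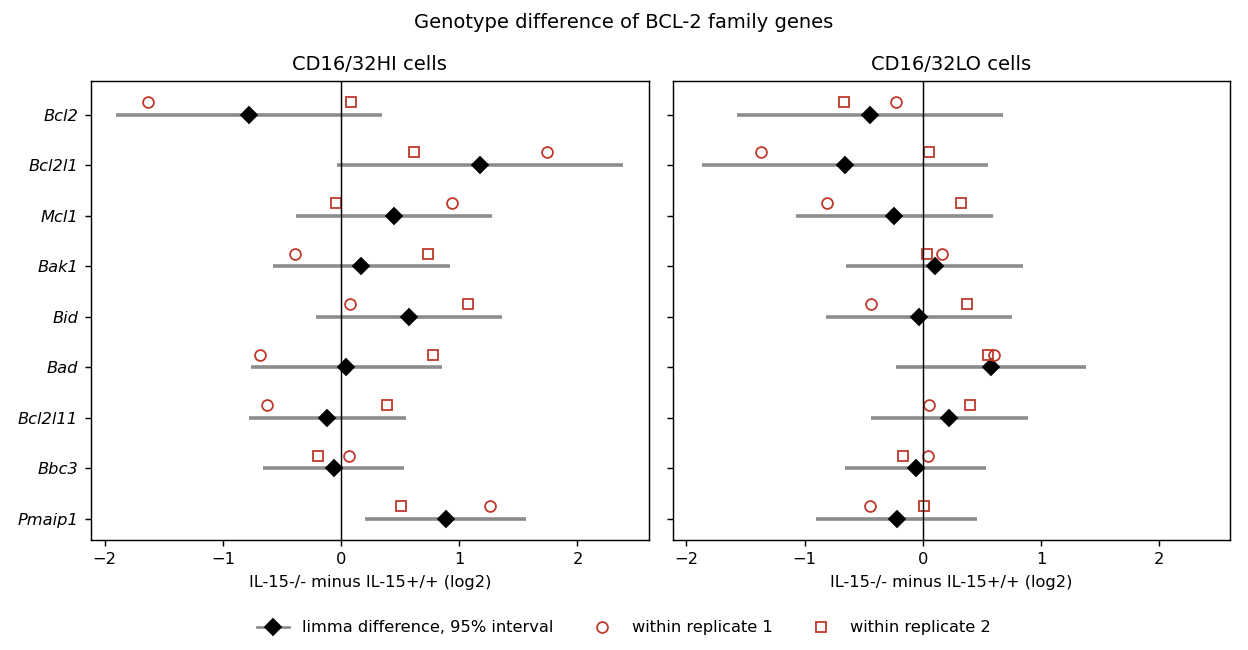
Difference of IL-15-/- minus IL-15+/+ (log2) for the 9 genes in CD16/32HI (left) and CD16/32LO cells (right), as limma's estimate with its 95% interval (diamond and bar) and within each replicate number (open circle for 1, open square for 2). Only the Pmaip1 interval in CD16/32HI cells, 0.20 to 1.56, leaves out 0, and the adjusted p of that gene was 0.854.

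Whether the genotype difference itself differed between populations was tested within mice. The interaction was 1.83 ± 0.996 (SE) for Bcl2l1 and 1.10 ± 0.462 for Pmaip1, and 0 of 9 members passed (limma adjusted p = 0.878 for both), nor did any probe set of 21789 (0%; 578 at an unadjusted p under 0.05). Without the 14-month IL-15-/- mouse the count was also 0 of 9 members and 0 of all probe sets.

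The sorted populations came from the same tumors, so each mouse gave its own difference of CD16/32HI minus CD16/32LO. Bcl2l1 was lower in CD16/32HI cells by 1.14, 1.38 and 1.70 (log2) in IL-15-/- replicate 2 and IL-15+/+ replicates 1 and 2. In the 14-month IL-15-/- mouse the difference was 1.72, of similar size and opposite sign. Over the 3 mice Bcl2l1 fell by 1.41 ± 0.16 (SE), or 2.66-fold (limma with mouse as a block, adjusted p = 0.000512).

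Mcl1 was lower in CD16/32HI cells by 0.82, 0.85 and 0.45 (log2) in the same 3 mice and differed by 0.89 in the 14-month IL-15-/- mouse. Over the 3 mice it fell by 0.71 ± 0.15 (SE), or 1.63-fold (limma adjusted p = 0.0124). This call was lost when either IL-15+/+ replicate 1 or IL-15-/- replicate 2 was left out as well (adjusted p = 0.114 and 0.0647) and when all 35557 rows of the table were tested (0.0659). The Bcl2l1 call held under each of these, with adjusted p between 0.000762 and 0.0186. Markers of other cells were also lower in the CD16/32HI cells of these mice, with 10 of 10 neutrophil markers past the test (median difference -2.52). So were 6 of 8 of T cells (-0.79, with 1 higher), 3 of 5 of B cells (-0.99) and 4 of 10 of NK and cytotoxic cells (-0.67). Macrophage markers ran the other way, with 8 of 9 higher and 0 lower (median difference 2.20). The neutrophil and macrophage lists were those that set the 14-month IL-15-/- mouse apart, so their counts in the 3 mice follow in part from that choice. With all 4 mice 0 of 10 neutrophil and 0 of 9 macrophage markers passed. The part of all these markers in the Bcl2l1 and Mcl1 results was not tested.

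The other 7 members did not pass in the 3 mice. Pmaip1 differed by -0.43 ± 0.16 (SE) with adjusted p = 0.111, and its values were -0.10, -0.60 and -0.60 in IL-15-/- replicate 2 and IL-15+/+ replicates 1 and 2. Bad differed by 0.39 ± 0.14 (adjusted p = 0.112) and Bcl2l11 by 0.32 ± 0.14 (adjusted p = 0.181), both higher in CD16/32HI cells in each of the 3 mice. Bcl2 differed by 0.38 ± 0.20, with 0.97, -0.06 and 0.23 in those mice. Bak1 (0.29 ± 0.17) and Bid (-0.23 ± 0.17) also had mice of both signs, and Bbc3 differed by -0.11 ± 0.14.

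**Figure D3:**
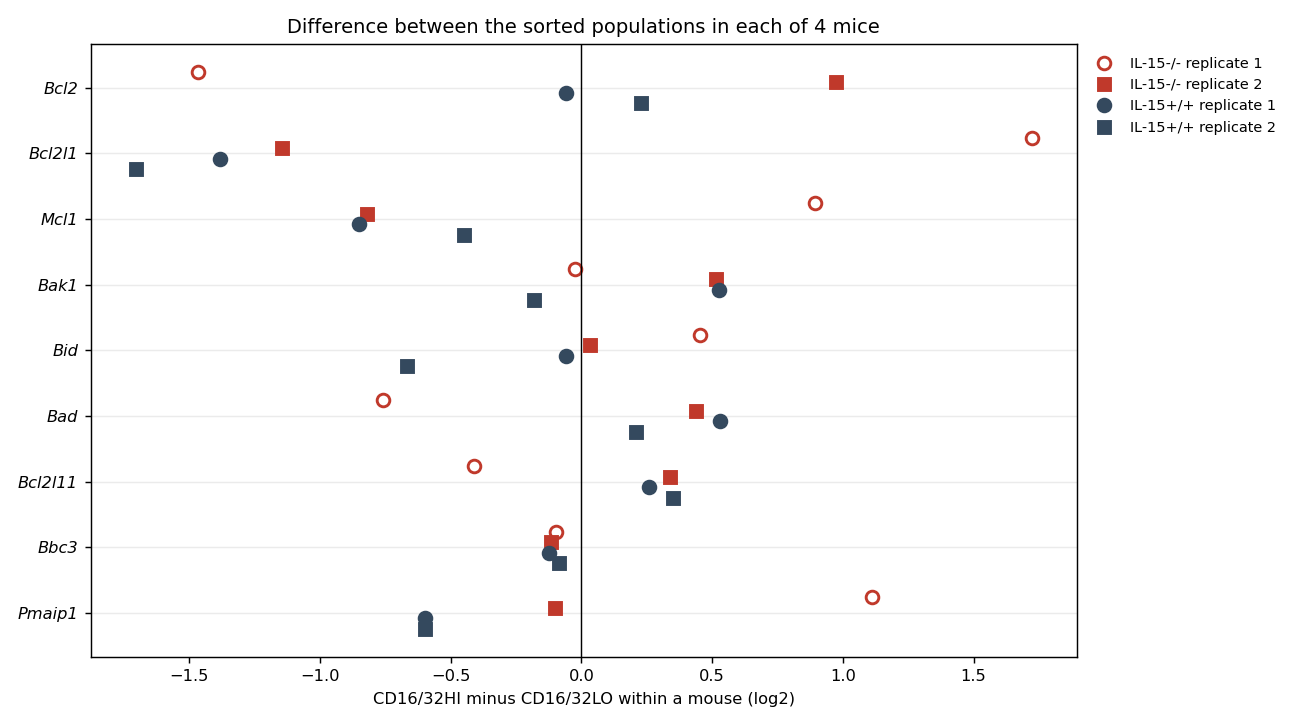
Difference of CD16/32HI minus CD16/32LO (log2) in each of 4 mice for the 9 genes, with open circles for the 14-month IL-15-/- mouse. For Bcl2l1, Mcl1 and Pmaip1 the open circle lies right of 0 and the other 3 mice left of it, and for Bad and Bcl2l11 the positions are reversed.

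In these 3 mice 2 of 9 members passed, both lower in CD16/32HI cells, against 14.3% of all probe sets (6.67% higher and 7.62% lower), a share that would be about 1 of 9. The direction was the same in all 3 mice for 4 members that were lower (Bcl2l1, Mcl1, Bbc3 and Pmaip1), against 22.8% of all probe sets, and for 2 that were higher (Bad and Bcl2l11), against 23.8%. The members' median difference was -0.11, beside 0.03 over all probe sets. With all 4 mice 0 of 9 members and 0 of 21789 probe sets (0%) passed limma's test, 257 of all probe sets were under an unadjusted p of 0.05, and the median was -0.06, beside 0.02. Bbc3 alone kept 1 direction in all 4 mice, with differences between -0.09 and -0.12 (1 of 9 lower, against 3.02% of all probe sets, and 0 of 9 higher, against 4.14%). Of the 6 members with 1 direction in 3 mice, 5 ran the other way in the 14-month IL-15-/- mouse, and so did 84.5% of the 10159 probe sets with 1 direction in 3 mice.

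**Figure D4:**
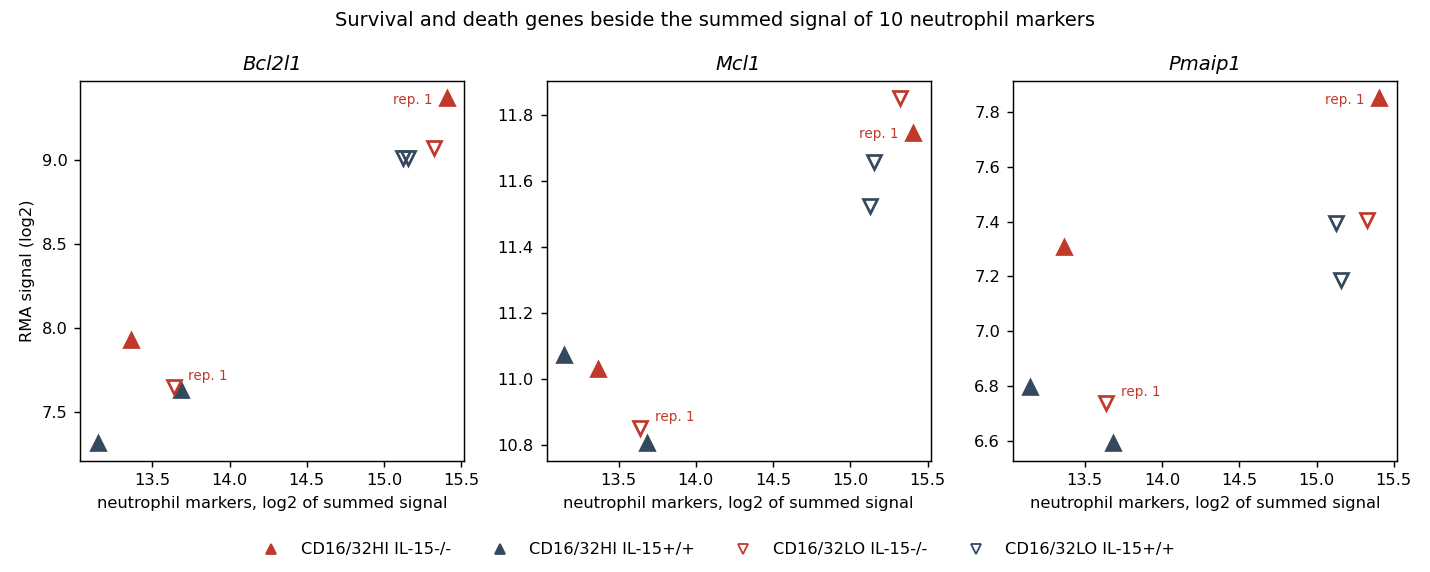
Signal (log2) of Bcl2l1, Mcl1 and Pmaip1 against the log2 summed signal of 10 neutrophil markers on the same array, with filled triangles for CD16/32HI, open triangles for CD16/32LO and "rep. 1" at the arrays of the 14-month IL-15-/- mouse. The array labelled CD16/32HI of that mouse (15.4) sits with the CD16/32LO arrays of the other mice (15.1 to 15.3) and its CD16/32LO array (13.6) with the CD16/32HI arrays (13.1 to 13.7).

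Genes that act around the BCL-2 family were read from 5 further lists, with 47 of 56 genes measured. In the 3 mice 12 of the 47 passed between populations, 5 higher and 7 lower in CD16/32HI cells, against 14.3% of all probe sets (6.67% higher and 7.62% lower). The median difference over the lists was 0.04, beside 0.03 over all probe sets. Among regulators upstream of the family, 3 of 6 were lower and 0 higher. The p53 ligase Mdm2 differed by -1.17 ± 0.14 (SE; limma adjusted p = 0.000649) and Foxo3, a transcription factor that can induce Bim and Puma, by -0.88 ± 0.15 (adjusted p = 0.00397). The death receptor Fas differed by -1.51 ± 0.17 (adjusted p = 0.000513) and was the only 1 of 8 genes of its pathway to pass. Birc5, the mitotic inhibitor of apoptosis survivin, differed by 1.40 ± 0.24 (adjusted p = 0.00501), 1 of 2 among 7 inhibitor genes that were higher in CD16/32HI cells, with 1 lower. The executioner caspase gene Casp6 was 0.82 ± 0.15 higher (adjusted p = 0.00646), in a list of 13 caspase and mitochondrial genes of which 3 were higher and 1 lower. Bcl2l15, another BCL-2 family gene, differed by -0.79 ± 0.14 (adjusted p = 0.00528), the only 1 of 13 further family genes that passed. Its signal was 4.10 to 5.30 on the 8 arrays, below every array median, where signals of expressed and unexpressed genes are hard to separate.

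The per-array values of Fas and Mdm2, which had the largest differences among the listed genes that were lower in CD16/32HI cells, are given for comparison with Bcl2l1. Fas was at 7.76 and 6.66 in IL-15-/- and 5.89 and 5.94 in IL-15+/+ CD16/32HI cells, and at 6.13 and 7.94 in IL-15-/- and 7.21 and 7.87 in IL-15+/+ CD16/32LO cells. Mdm2 was at 9.95 and 8.94 in IL-15-/- and 8.04 and 8.24 in IL-15+/+ CD16/32HI cells, and at 8.39 and 10.12 in IL-15-/- and 9.21 and 9.40 in IL-15+/+ CD16/32LO cells. Both were thus high on the array labelled CD16/32HI of the 14-month IL-15-/- mouse and low on its CD16/32LO array.

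With all 4 mice 0 of the 47 genes passed between populations. Between genotypes 0 of the 47 passed in either population, with or without the 14-month IL-15-/- mouse. The outermost differences by list follow, each with its value without that mouse in parentheses. Among upstream regulators in CD16/32HI cells they were Mdm2 1.30 (0.80), Foxo3 0.76 (0.45) and Foxo1 -0.10 (0.23), and in the death receptor pathway Fas 1.29 (0.74), Tnfsf10 0.54 (0.69) and Fasl -0.04 (-0.24). Inhibitors gave Birc2 0.78 (0.64), Naip5 0.36 (0.64) and Birc5 -1.04 (0.37), and caspases and mitochondrial genes Apaf1 0.65 (0.51), Casp9 0.46 (0.45), Htra2 -0.10 (0.30) and Casp6 -0.28 (0.35). Further family genes gave Bcl2l15 0.60 (0.26), Bnip3 0.47 (0.70), Bcl2l14 -0.21 (-0.22) and Bok -0.36 (-0.58). The signs of Foxo1, Birc5, Htra2 and Casp6 thus turned in CD16/32HI cells without the mouse. Upstream regulators in CD16/32LO cells gave Trp73 0.31 (0.40), E2f1 0.11 (-0.09), Foxo3 -0.26 (0.14) and Foxo1 -0.37 (-0.43), and the death receptor pathway Tradd 0.47 (0.37), Fadd 0.24 (0.24), Fasl -0.51 (-0.71) and Fas -0.51 (0.40). Inhibitors there gave Naip6 0.77 (1.09), Naip5 0.53 (0.62), Xiap -0.19 (0.14) and Birc3 -0.50 (-0.41), and caspases and mitochondrial genes Casp6 0.83 (0.76), Vdac1 0.68 (0.38), Apaf1 -0.09 (0.17) and Casp2 -0.15 (0.06). Further family genes gave Bcl2l2 0.84 (0.78), Bnip3 0.71 (0.33), Bcl2l15 -0.17 (0.43) and Bcl2l14 -0.41 (-0.35). In CD16/32LO cells the signs of E2f1, Foxo3, Fas, Xiap, Apaf1, Casp2 and Bcl2l15 turned. Some of the listed genes had low signals. Tnfsf10 (3.70 to 5.15) and Bcl2l14 (4.62 to 5.25) lay below every array median on all 8 arrays, as did Fasl on the CD16/32HI arrays (4.27 to 4.67). Bcl2l2 read 5.72 and 4.81 in IL-15+/+ CD16/32LO cells. Expressed and unexpressed genes are hard to separate at such levels. The median of the 47 genes was 0.16 in CD16/32HI and 0.11 in CD16/32LO cells, beside 0.09 and 0.13 over all probe sets, and 0.27 and 0.19 without that mouse, beside 0.12 and 0.14. Naip genes are near-identical copies, so their probe sets may read each other's transcripts. The neutrophil survival genes Bcl2a1a, Bcl2a1b and Bcl2a1d share 3 probe sets, which lay between 12.0 and 12.7 (log2) on all 8 arrays and are not assigned to 1 gene.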

How the data were processed

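RNA of sorted tumor cells was hybridised to 8 arrays. The authors made the deposited log2 values with RMA (background correction, normalization and summary per probe set) in Affymetrix Expression Console, whose version and genome build are not given in the sources used here. Of 35557 probe sets, 21789 carried 1 gene symbol in the platform annotation and were tested, 1621 carried several and 12147 none. Genotypes were compared within each population by limma 3.58.1 in R 4.3.3 on 4 group means over 8 arrays, and populations with mouse as a block, at a Benjamini-Hochberg adjusted p under 0.05. The population labels of 1 tumor share a genotype and replicate number, which marks the mouse. Deviations of same-numbered arrays correlated at 0.361 between IL-15+/+ populations and at -0.458 between IL-15-/- populations. Between genotypes the replicate numbers mark only age, so no block was used there. The members and lists were chosen with earlier results of these data known. All members were named, with the 6 lowest adjusted p per comparison among listed genes that passed, otherwise the outermost 2 in each direction per list. The fits were tested on simulated data. Alternatives covered scaling, arrays in the fit, the methods' test, blocks, filters and left-out arrays. The number of arrays limits the precision.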

Additional observations from a re-analysis of the deposited data

How the results depend on the processing

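Fits that leave out an array treat a lone array as varying like the other groups. Of the members' genotype differences, 83 of 89 values in CD16/32HI and 84 of 89 in CD16/32LO cells kept their direction and side of the threshold under settings that kept all arrays. The exceptions were small differences that turned sign, and the cause was not tested. In CD16/32HI cells quantile normalization gave -0.0871 for Bak1 and -0.16 for Bad, median centring -0.0624 for Bad, and a block for the sets of arrays that share equal values -0.0774 for Bak1, -0.31 for Bad and 0.0574 for Bbc3. In CD16/32LO cells quantile normalization gave -0.0460 for Bak1, centring -0.0146 for Bak1, and the set block -0.15 for Bak1, -0.12 for Bcl2l11 and 0.0609 for Bbc3. Leaving out arrays moved the CD16/32HI differences of Bcl2 between -1.63 and 0.0743, Bak1 -0.27 and 0.61, Bad -0.32 and 0.41, Bcl2l11 -0.46 and 0.22, and Bbc3 -0.29 and 0.17. In CD16/32LO cells it moved Bcl2l1 between -1.37 and 0.0570, Mcl1 -0.74 and 0.26, Bak1 -0.13 and 0.33, Bid -0.24 and 0.17, Bbc3 -0.27 and 0.15, and Pmaip1 -0.55 and 0.11. Over 4 mice the population differences moved between -0.43 and 0.38 for Bcl2, -0.23 and 0.14 for Bid, -0.0371 and 0.39 for Bad, and -0.43 and 0.14 for Pmaip1.

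Probe sets called between genotypes in CD16/32HI cells numbered 5, against 3 with the replicate number as a block, 2 with only the population's arrays, 0 with the methods' test, 0 with the set block and 3 above the median level. Left-out arrays gave 2 to 9, with 9 lacking both arrays of the 14-month IL-15-/- mouse. In CD16/32LO cells there were 8, against 6 with the replicate block, 0 with the methods' test and 2 with the set block, and left-out arrays gave 3 to 26, with 26 lacking both arrays of that mouse. Deviations of same-numbered arrays of the 2 genotypes correlated at 0.0556 in CD16/32HI and 0.134 in CD16/32LO cells, and the replicate block changed no member's call. Under every setting run 0 members passed between genotypes. The members' median in CD16/32HI cells was -0.0871 after quantile normalization and 0.31 above the median level, and left-out arrays gave -0.16 to 0.41, with -0.17 to 0.17 in CD16/32LO cells. Between populations in 3 mice 3114 probe sets were called, against 1852 with no replicate block and 1994 over all rows of the table, where 1 member passed. Left-out arrays gave 1643 (without either array of IL-15+/+ replicate 1) to 3203, and 1 to 2 members, and the median was 0.0273 above the median level, where 8 members remained. Over 4 mice left-out arrays gave 0 to 3114 probe sets and 0 to 2 members, both highest without either array of the 14-month IL-15-/- mouse, and medians of -0.11 to 0.0617. The interaction gave 0 to 2831 probe sets and 0 to 4 members, both highest without either array of IL-15-/- replicate 2, where the 14-month IL-15-/- mouse alone stood for its genotype. A crossed pairing of the IL-15-/- arrays, chosen after seeing the data, called 236 probe sets and 1 member. Each measured member had 1 probe set, so the probe set of lowest mean was no alternative. Signals near the array median, as for Bbc3, limit what can be seen.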
